A study of Triticum aestivum with 2 samples.

Results

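Of 7387 genes tested, 358 were counted at least 4 times more strongly in 1 cross-section of the wheat root, called section A here, than in both sections B and C of the same chip, and these 358 genes are described below. They were chosen by these very values: a gene had to have at least 100 molecular identifiers (MIDs, 1 per captured RNA molecule) in the circles drawn on sections A, B and C together, and a level in A of at least 4 times that in B and in C, a count under 3 in B or C being raised to 3. Levels are given as counts per 1000000 nuclear MIDs of the same circle or chip (CPM). Genes of low confidence (IDs ending in LC) and genes of the study's table of spatial markers were not considered. The 7387 genes were those of the 96644 nuclear gene IDs of the chip that met these conditions, and 4.85% of them passed, so the excess in A over B and C is given as a description only. The reverse, B and C both at least 4 times A, held for 7.47%.

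The study placed cryosections of roots of Triticum aestivum, ecotype Chinese spring, grown in soil, on 2 Stereo-seq chips, 1 from the root cap region and 1 from the distal root region; no treatment or genotype was compared. A Stereo-seq chip carries barcoded capture spots, so each RNA molecule is counted at a position. There was 1 library per region, the sections of a chip share it, and no replicate check or test was possible: every limit given below is an exact 95% Poisson or binomial limit that covers counting error only. Circles on sections A, B, C and D of the distal root region held 1357144, 1723340, 2194634 and 1994044 nuclear MIDs, and 10 circles on the often folded or torn sections of the root cap region held between 97865 and 628560.

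Xylem vessels and tracheids are built by cells that lay down a secondary wall of cellulose, xylan and lignin and then die, so that their wall enzymes, and proteases and nucleases that empty the cell, are known markers of maturing xylem. In a root the xylem lies in the central stele, inside the endodermis, and the cortex and epidermis lie around it. As cells leave the meristem they stop dividing, elongate and differentiate in every layer of the root, so sections cut at different distances from the tip differ in the cortex and epidermis as well.

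The markers of the study were set against the label of section A first. Its 4 xylem markers summed to 129 CPM in A (limits 111 to 150), against 23.8 in B, 17.8 in C and 22.1 in D, and none of the 4 was at 0 in any section. Their ratio of A to B was 5.42 (3.84 to 7.81), that of A to C 7.26 and that of A to D 5.84. The 20 G1/S markers summed to 609 CPM in A, against 2779 in B, 6618 in C and 4658 in D, and the 20 G2/M markers to 68.5 against 411, 526 and 353. Section A was therefore higher in xylem markers and lower in division markers than the other 3. It also held fewer MIDs of the 5 phloem markers, 3 of which were at 0 in A, and of the 18 epidermis markers (514 CPM against 1914 to 2303), and more of the 5 endodermis markers (94.3 against 15.1 to 36.6). The 14 cortex markers summed to 2164, 696, 3021 and 1166 CPM in A, B, C and D and the 8 provascular markers to 131, 52.2, 202 and 90.3, so that A lay within the range of the others. The 19 root cap markers were at 0 in all 4 sections. In sections counted as a whole, more cells of a type and more RNA per cell cannot be told apart.

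The summed level of the 358 genes was 49976 CPM in A, which is 4.998% of all nuclear MIDs there. It was 6301 CPM in B, 4238 in C and 6292 in D. Section D was not used by the choice of genes, although A was: the ratio of A to D was 7.94 (7.79 to 8.10), close to the 7.93 of A to B and below the 11.8 of A to C. Of the 358 genes, 313 were at least 4 times higher in A than in D, as were 6.08% of all genes tested, and the lowest ratio was 2.09. The median ratio of A to D was 7.83 (quartiles 4.90 and 16.6), against 0.943 over all genes tested. Both figures share the values of section A with the rule. The genes ranged from 60 to 1287 MIDs in A, with a median of 129. The 10 with the most MIDs made up 14.0% of their sum. The excess was graded: 164 genes lay under 6 times the higher of B and C, 107 lay at 10 times or more and 53 at 20 times or more. No gene owed its place to a single spot, since the largest share of a gene's MIDs in A held by 1 spot was 9.59%.

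**Figure D1:**
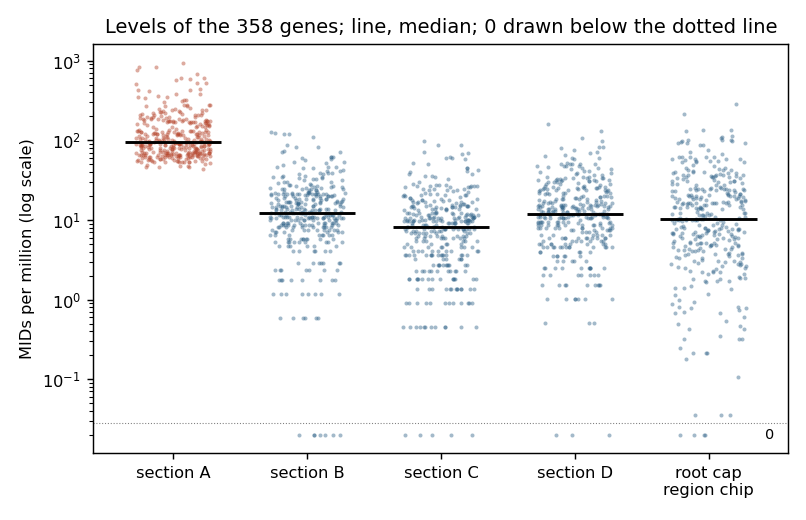
Level of each of the 358 genes (CPM, log scale) in sections A to D of the distal root region and on the whole chip of the root cap region; black lines are medians and genes at 0 are drawn below the dotted line. The genes reach 44.2 to 948 CPM in A and mostly lie well below that in B, C and D, while their spread is widest on the root cap region chip.

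At the edge of the rule, TraesCS1B03G0800600 was the last gene inside, with 79, 25 and 18 MIDs in A, B and C and 4.01 as the smaller of its ratios of A to B and of A to C, called the smaller ratio below. TraesCS1D03G0930700 (4.03) and TraesCS1B03G0687100 (4.04) came next. Just outside lay TraesCS5B03G0646900 with 63, 20 and 19 MIDs, whose ratio to B rounds to 4.00, then TraesCS6D03G0506000 (3.995) and TraesCS7A03G0839100 (3.97). The limits of the ratio of TraesCS1B03G0800600 to B were 2.53 and 6.57, so genes on either side of the edge cannot be told apart by these counts. Of the genes left out by name, 15 of 374 low-confidence genes with 100 MIDs passed the same fold, and 2 of 55 marker genes did. The latter are the cortex markers TraesCS1B03G0768600, with 1270, 192, 448 and 291 MIDs in A, B, C and D, and TraesCS1A03G0676300, with 439, 4, 11 and 5.

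The gene with the most MIDs in A was TraesCS1A03G0676400, for which the study's tables give no product name. It had 1287 MIDs in A, 33 in B, 37 in C and 74 in D, or 948, 19.1, 16.9 and 37.1 CPM. Section A stood 49.5 times above B (35.1 to 72.3) and 25.6 times above D. Next came TraesCS2B03G0949900, a chitinase 4-like gene with 1126, 29, 24 and 28 MIDs. Chitinases cleave chitin and are known as defence proteins. TraesCS3B03G0317200, a probable galactinol-sucrose galactosyltransferase 2, of the family that makes raffinose, had 1121, 34, 13 and 17 MIDs. All 3 were low in every section but A.

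The next genes were not all of this kind. TraesCS3A03G0247900 had 1039 MIDs in A, 191 in B, 9 in C and 65 in D, so that B and C themselves differed widely. TraesCS3D03G0241700 had 935, 35, 16 and 13. Neither has a product name in the tables. TraesCS2B03G1541700 (833, 209, 137 and 263 MIDs), TraesCS2A03G0869700 (830, 211, 213 and 215), TraesCS5A03G0906200 (804, 220, 79 and 319) and TraesCS2B03G0958900 (720, 210, 191 and 196) had large counts in every section and passed the fold by little, at 4.35 to 5.06 times the higher section. The ratio of TraesCS5A03G0906200 to section D was 3.70 (3.25 to 4.23). The remaining gene of the first 10, TraesCS5A03G0421300, had 783, 78, 13 and 130.

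The 5 genes with the highest smaller ratio had few MIDs in sections B, C and D, although the 2 basic leucine zipper genes among them had 783 and 572 MIDs on the root cap region chip. TraesCS1B03G0768700 had 438 MIDs in A, 2 in B, 3 in C and 7 in D, and its ratio to D, which was not used in ranking, was 91.9 (44.2 to 230.02). TraesCS1D03G0640800 had 245, 0, 1 and 3, and so was at least 104 times higher in A than in B, taking 3 MIDs for the 0. TraesCS3B03G1460900 had 221, 3, 4 and 4, of which only 7.24% in A were exonic. The other 2 are basic leucine zipper 6-like genes, TraesCS3B03G0838100 with 199, 3, 2 and 9 MIDs and TraesCS3D03G0674700 with 177, 2, 2 and 5. These encode transcription factors of an orthogroup named after Arabidopsis ATBZIP61. Their copy on the A subgenome, TraesCS3A03G0731500, had 207, 5, 5 and 9.

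Most MIDs of the 358 genes in A were exonic (95.6%, against 83.0% of all nuclear MIDs there), and 204 genes had exonic MIDs only. In 15 genes under 50% were exonic. Among them were the germin-like gene TraesCS6A03G0967400 (18.8%), the A/B barrel gene TraesCS2B03G0106300 (8.25%) and TraesCS4D03G0130800 (3.77%). No source at hand says whether counting used strand, so for these genes reads of an overlapping or antisense transcript cannot be told apart from their own.

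Product names in the study's tables cover only part of the genes: 70 of the 358 had one, 79 had a product or an orthogroup, and 279 had neither. The tables mainly list genes that mark cell clusters in single-cell data, and are held only in part. Of the 351 tested genes with a product name 19.9% passed the rule, against 4.85% of all. Group counts are best read against the former. The 12 groups below were formed by key words in these names, and 35 of the 358 genes fell into them.

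Enzymes that supply and build xylan gave the most genes, 9 of 20 tested being among the 358 with a median smaller ratio of 2.52 (0.840 over all genes tested, 1.84 over those with a product name). The 6 UDP-glucose 6-dehydrogenases, which make UDP-glucuronic acid, the donor for xylan and pectin, were all among them. TraesCS5B03G0992400 had 435, 126, 150 and 163 MIDs in A, B, C and D, and its copies TraesCS5A03G0942400 and TraesCS5D03G0900300 had 370 and 379 in A. The group 4 copies TraesCS4A03G0686700, TraesCS4B03G0109200 and TraesCS4D03G0092300 had 163, 116 and 92 MIDs in A and 14 to 17 in B. Their excess in A over D was 4.79, 4.73 and 4.66 times. The other members were 2 probable glucuronosyltransferases (95 and 82 MIDs in A) and the XAX1-like xylosyltransferase TraesCS7A03G0546800, with 90, 14, 14 and 15 MIDs; XAX1 adds xylose to xylan side chains in rice. The UDP-glucuronic acid decarboxylases, the next step towards UDP-xylose, were not among the 358. The decarboxylase 6 gene with the highest level in A, TraesCS4B03G0570200, had 322, 249, 331 and 335 MIDs. The decarboxylase 2-like gene TraesCS1B03G0692600 had 263, 146, 116 and 131. All tested decarboxylases were higher by level in A than in B and C, with smaller ratios from 1.37 to 2.29.

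Of the lignin and phenylpropanoid genes, 5 of 12 tested were among the 358, and all 12 were higher by level in A than in B and C, as were 78.3% of the tested genes with a product name. The median smaller ratio was 2.65. Phenylalanine ammonia-lyase opens the pathway, and the 2 such genes, TraesCS6B03G0759200 and TraesCS6A03G0613700, had 373, 98, 40 and 92 MIDs and 284, 68, 24 and 64. Tricin synthase methylates the flavone that grasses build into lignin. Its copies TraesCS7A03G0552300, TraesCS7B03G0369400 and TraesCS7D03G0534100 had 254, 164 and 177 MIDs in A and 38 to 59 in B and C. In D they had 52, 78 and 82, and the ratios of A to D were 7.18 (5.31 to 9.87), 3.09 (2.35 to 4.10) and 3.17 (2.43 to 4.17), so that the copy on the A subgenome had the highest ratio. The methyl donor enzymes, S-adenosylmethionine synthases, were not among the 358.

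For secondary wall cellulose only 3 chitinase-like protein 1 genes were tested, of a family needed for cellulose assembly in Arabidopsis, and 1 passed, TraesCS5A03G0671000 (86, 27, 27 and 30 MIDs). Its copies had smaller ratios of 3.25 and 3.20. Of the proteases and nucleases 3 of 12 passed, near the 19.9% of the tested genes with a product name. They were the oryzain alpha-like cysteine proteases TraesCS2B03G1355200 (120, 14, 22 and 21 MIDs) and TraesCS2D03G1146600 (113, 23, 20 and 24), and the metacaspase-4-like TraesCS3B03G0911300 (118, 35, 25 and 39). The NAC and MYB factors, which include regulators of secondary walls, gave 0 of 4 tested and the nitrogen assimilation genes 0 of 1. By level, all 4 NAC and MYB factors were higher in A than in B and C, and 2 at least 2 times. Among the tested genes with a product name 78.3% and 44.4% were. The median smaller ratio of the 4 was 2.21. Of the arabinogalactan and fasciclin proteins 2 of 7 passed, and all 7 were at least 2 times higher in A than in B and C, as were 44.4% of the tested genes with a product name. TraesCS1B03G1150600, a fasciclin-like arabinogalactan protein 12, had 238, 58, 58 and 63 MIDs, and TraesCS5A03G1009900, numbered 16, had 122, 28, 34 and 50. The cytoskeleton genes gave 1 of 27, the tubulin beta-4 gene TraesCS5B03G1033300 (103, 24, 32 and 24). By level, 19 of the 27 were higher in A than in both B and C, and 6 at least 2 times. The shares over the tested genes with a product name were 78.3% and 44.4%. Only 5 of the 27 were lower in A than in both. All 6 tubulin alpha genes were lower in A than in C, although the tubulin alpha-3 genes were higher by level in A than in B. Of the class III peroxidases 1 of 3 passed, TraesCS2D03G1302200, with 117, 1, 10 and 2 MIDs, and 1 of 2 expansins, TraesCS4B03G0963400, with 174, 36, 57 and 52.

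The germin-like and blue copper proteins had the highest share, 6 of 7 tested genes, against 19.9% of the tested genes with a product name. Their median smaller ratio was 11.8. Germin-like proteins are secreted cupins of the cell wall. TraesCS6D03G0848200 had 307, 15, 24 and 34 MIDs, and TraesCS6A03G0967400 had 336, 31, 22 and 59. TraesCS6A03G0967600 (124, 10, 0 and 23) and TraesCS6B03G1184200 (89, 16, 4 and 16) were the other tested germin-like 1-1 genes. A further gene of that name, TraesCS6B03G1184300 (31, 4, 2 and 2), had under 100 MIDs in A, B and C together and so was not tested. Its smaller ratio was 9.84. All 4 tested germin-like 1-1 genes led in the outermost class of the radius described below. The study's tables list these 4 as related copies, so the share of 6 of 7 rests mostly on related genes. The uclacyanin 1-like copper proteins TraesCS2D03G0611000 and TraesCS2B03G0737400 had 182, 23, 12 and 17 and 102, 11, 5 and 9 MIDs.

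Among aquaporins and transporters 6 of 17 passed, and 15 of the 17 were at least 2 times higher in A than in B and C. The shares over the tested genes with a product name were 19.9% and 44.4%. TraesCS7D03G0801800, a probable TIP2-2 water channel of the vacuole membrane, had 367 MIDs in A, 11 in B, 100 in C and 30 in D. The plasma membrane channels TraesCS2D03G0126300 (PIP2-6; 126, 13, 21 and 34 MIDs) and TraesCS6B03G1249800 (PIP1-5-like; 179, 52, 26 and 96) also passed, the latter with an A to D ratio of only 2.74. The 3 ABC transporter B 19-like genes, relatives of an auxin exporter of Arabidopsis, had 106 to 129 MIDs in A and 9 to 33 in D.

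Several genes with a name lay outside these groups. The dehydrins, hydrophilic proteins known to accumulate in water-stressed cells, gave 4: TraesCS6D03G0772700 (DHN3-like) had 608, 78, 10 and 31 MIDs and TraesCS6D03G0772500 (DHN4-like) 106, 19, 4 and 0. The DHN2 genes TraesCS5B03G0937300 and TraesCS5D03G0852000 had 324, 90, 8 and 68 and 303, 44, 7 and 39. All 4 were lowest in C or D. The chitinase 8-like gene TraesCS1A03G0542400 had 477, 41, 12 and 44 MIDs. TraesCS2B03G0106300, named for the stress-response A/B barrel domain, had 303, 80, 110 and 95. The BURP domain gene TraesCS3D03G1197600 had 156, 28, 39 and 40.

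Position within section A was not used by the rule. Relative radius is the distance from the centre of the circle over its radius, and 4 classes were used: central (below 0.37), ring (to 0.50), middle (to 0.85) and outer. The markers of the study lay in A where their cell types do. Of the xylem MIDs 43.4% were central, and of the endodermis MIDs 46.1% were in the ring. Of the cortex MIDs 71.4% were in the middle, and of the epidermis MIDs 47.9% were in the outer class. The study had listed these markers for showing such patterns by eye in its sections, so this is no independent check of the classes. The 358 genes did not follow the xylem markers. Only 8.99% of their MIDs were central, against 14.5% of all nuclear MIDs of the circle, a log2 ratio of -0.69 (-0.72 to -0.65), whereas that of the xylem markers was 1.59 (1.24 to 1.91). In the ring the log2 ratio of the 358 genes was -0.31, in the middle 0.17 (0.15 to 0.18) and in the outer class 0.11 (0.09 to 0.13). The outer value fell to -0.13 when area took the place of all MIDs as the reference, so its direction is not settled. Summed levels were 31032 CPM at the centre, 40422 in the ring, 56171 in the middle and 53846 in the outer class.

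**Figure D2:**
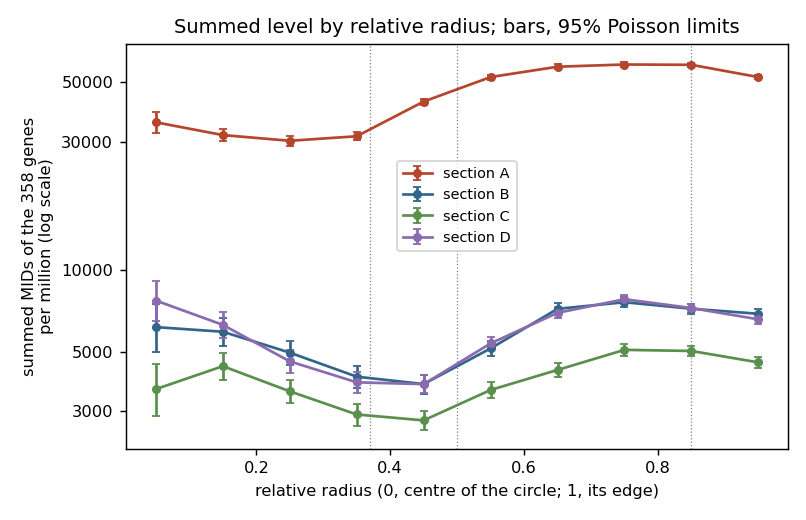
Summed CPM of the 358 genes (log scale) in 10 steps of relative radius, for sections A to D; bars are 95% Poisson limits and dotted lines the class boundaries. Section A lies above the others at every radius, the genes having been chosen for a higher level in A than in B and C. Its level is lowest in the inner steps, while B, C and D dip near the ring.

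The summed level was higher in A than in B, C and D in every class. The genes were chosen by A, B and C over the whole circle, so this is a description only. The central level of A, 31032 CPM, was above the 3519 to 5010 of the central class in B, C and D. The profile of the other sections had another shape. Their log2 ratio was lowest in the ring, at -0.74 in B, -0.58 in C and -0.72 in D. Around section A the level was uneven: its 4 sectors of equal angle held 51087, 64014, 49503 and 37671 CPM. Of the 358 genes 201 were highest in the same sector. This was not counted over all genes tested, so it cannot be called particular to the 358. In B, C and D the sectors spanned 5840 to 6709, 4019 to 4475 and 5460 to 7721.

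By gene, a class was called where the lower Poisson limit of its MIDs exceeded the number expected from all nuclear MIDs of the circle, and the class with the highest ratio was taken. Of the 358 genes 10 led in the central class, 25 in the ring, 59 in the middle and 76 in the outer class, and 188 had none. Over the 3356 tested genes with at least 60 MIDs in A the corresponding shares were 15.2%, 7.78%, 5.36% and 8.19%, against 2.79%, 6.98%, 16.5% and 21.2% of the 358. The median count in A was 129 MIDs over the 358 genes and 110.5 over the 3356. Central genes were fewer and middle and outer genes more frequent than in this background.

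The most central gene was TraesCS1A03G0908100, with 128, 39, 2 and 37 MIDs in A, B, C and D, of which 61.7% in A lay below a relative radius of 0.50. TraesCS7B03G0879300 (328, 101, 33 and 55) followed with 47.3% and TraesCS2B03G1381600, an ABC transporter B 19-like gene (128, 17, 11 and 22), with 45.3%. Its relative TraesCS2A03G1211600 had 43.4% and TraesCS7A03G1037700, with 464 MIDs in A, 42.2%. Of all nuclear MIDs of the circle 27.2% lay there. At the other end stood TraesCS4B03G0951600 (0.826%; 121, 30, 2 and 14 MIDs), TraesCS1D03G0053600 (1.21%; 165, 3, 6 and 3), the BURP gene TraesCS3D03G1197600 (1.28%), the germin-like TraesCS6A03G0967600 (1.61%) and TraesCS7D03G0132200 (3.21%; 249, 57, 23 and 81). In these 5 genes 56.5% to 63.0% of the MIDs in A were in the outer class.

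Genes called outer in A kept that position elsewhere. In sections B, C and D the outer log2 ratio of their summed MIDs was 0.74, 0.63 and 0.68 (0.59 to 0.77 in D), although only 1886, 1481 and 2148 MIDs remained there. The 10 central genes had a central log2 ratio of 1.03 in B, 0.32 in C (-0.07 to 0.68, so not settled) and 1.22 in D. The 59 middle genes had 0.31, 0.28 and 0.32 in the middle class. The 25 ring genes did not keep theirs: their ring log2 ratio was -0.42, -0.96 and -0.52, with the middle class raised at 0.39, 0.24 and 0.34.

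RNA of these genes was also counted off the sections. Of their MIDs on the chip 85.6% lay outside the 4 circles, as did 90.6% of all nuclear MIDs. In a ring from 50 to 300 spots outside each circle their level was 36034 CPM at A, against 5587 at B, 3833 at C and 5178 at D. Over all spots of the chip it fell from 55807 CPM between 250 and 500 spots from the centre of A to 19932 between 2750 and 3000. Between 5750 and 6000 spots it was 4899. The farthest steps run through circles B and C, where the rule required low levels, so their low values are partly set by the rule. With the density of that ring subtracted from each circle, 165 genes passed the rule, of which 118 were among the 358. How much of the signal inside each circle is such spread RNA was not tested.

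**Figure D3:**
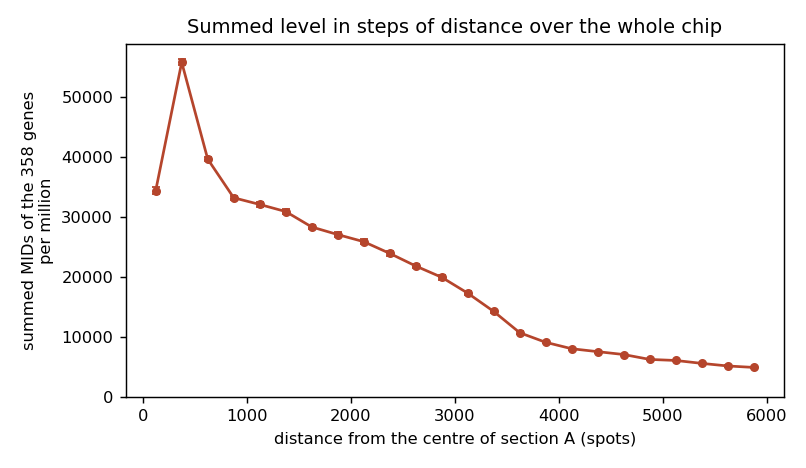
Summed CPM of the 358 genes in steps of 250 spots from the centre of section A over the whole chip; bars are 95% Poisson limits. The level peaks inside the section at 55807 and declines gradually to 4899 at 5750 to 6000 spots. The farthest steps run through circles B and C, where the rule required low levels.

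The subgenomes took nearly equal parts. Wheat is hexaploid, and most genes exist as homeologs on its A, B and D subgenomes. Of the 358 genes 116 were on A, 116 on B and 125 on D, with 1 on no assigned chromosome, and the shares of gene IDs were 32.4% (27.6 to 37.5), 32.4% and 34.9% (30.0 to 40.1). Over all genes tested they were 33.4%, 33.5% and 32.5%. By MIDs in A, the subgenomes held 34.9%, 32.6% and 32.4%, against 37.1%, 30.7% and 29.7% over all genes tested.

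Homeologs could be paired only through shared rows of the study's tables, which gave candidates for 50 of the 358 genes, in 32 groups. In 30 of the 50 at least 1 homeolog was also among the 358, and in 11 groups all listed genes were. Of the 39 homeologs that were not, 21 had under 100 MIDs, 3 were marker genes and 15 were tested. Of these 15, 14 were higher in A than in B and C and 12 at least 2 times, as were 78.3% and 44.4% of the tested genes with a product name, and 42.4% and 14.8% of all genes tested. The 15 homeologs had a median smaller ratio of 3.11, and the highest was 3.97. Near-identical copies can share reads, so equal counts of copies are uncertain.

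In the complete groups every listed copy had passed the same minimum and fold, so likeness of their levels is partly set by the rule. The UDP-glucose 6-dehydrogenases of group 5 took 31.2%, 36.7% and 32.0% of their MIDs in A from the A, B and D copies, and the basic leucine zipper 6-like genes 35.5%, 34.1% and 30.4%. Group 4 was less even at 43.9%, 31.3% and 24.8%, as was tricin synthase at 42.7%, 27.6% and 29.7%. The pairs were the DHN2 genes, the oryzain alpha-like genes, the 2 glucuronosyltransferases TraesCS3A03G1024100 and TraesCS3D03G0952300, and 4 more. The cytochrome b561 and DOMON domain genes TraesCS2A03G0860700 and TraesCS2D03G0800700, of a family of membrane electron carriers, had 227 and 209 MIDs in A and 16 to 26 elsewhere. Those of proline dehydrogenase 2, which starts proline breakdown in mitochondria, had 94 and 121 in A and 3 and 5 in D (TraesCS1B03G0644100 and TraesCS1D03G0532400). The GATA factor 8-like pair TraesCS6A03G0951400 and TraesCS6B03G1161800 had 208 and 175 MIDs in A and 50 and 18 in D. The ABC transporter pair was TraesCS2B03G1381600, given above, and TraesCS2D03G1166500, with 106, 29, 21 and 9.

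**Figure D4:**
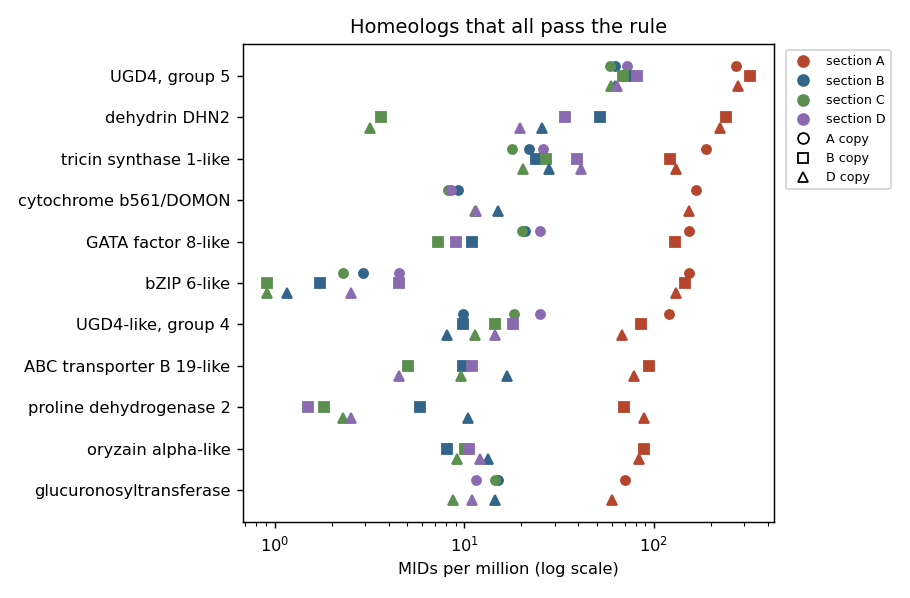
Level (CPM, log scale) of each copy in the 11 homeolog groups whose listed genes all passed the rule; colour marks the section and shape the subgenome, and UGD4 stands for UDP-glucose 6-dehydrogenase 4. Copies of a group mostly sit close together in section A, which the rule partly sets. Where counts are low, in B, C and D, some groups spread more, such as the DHN2 genes in B. Others spread less there, such as the group 4 dehydrogenases in B.

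Groups also split. TraesCS2B03G0106300 passed while its D copy TraesCS2D03G0066800 did not, with 100, 114, 118 and 108 MIDs in A, B, C and D and a smaller ratio of 1.11. Of the phenylalanine ammonia-lyase group of TraesCS6A03G0613700, the other 2 listed copies had 34 and 26 MIDs in A against its 284. Both had under 100 MIDs in A, B and C together and so were not tested. Their smaller ratios were 6.11 and 2.21, the former past the fold. The glycine-rich wall protein TraesCS5D03G1172900 (139, 38, 38 and 68) was grouped with TraesCS5B03G1313200, at a smaller ratio of 1.64, and with the marker gene TraesCS5B03G1313300, which had 29 MIDs in A and 105 in B. The gene with the most MIDs, TraesCS1A03G0676400, was grouped with the cortex marker TraesCS1B03G0768600, and through it with the neighbouring cortex marker TraesCS1A03G0676300; both also passed the fold.

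Some of the genes have nearby IDs. Runs of IDs on 1 chromosome with steps of at most 1000 in the ID number held 44 of the 358 genes in 18 runs. Runs were not counted over all genes tested, so whether these are more than any set of this size would hold is not known. The longest, of 5, was on 4A and ended with the HOX13-like homeobox gene TraesCS4A03G1007700 (123, 1, 0 and 5 MIDs). A run of 4 on 1D held TraesCS1D03G0640700, with 719, 74, 154 and 121 MIDs, and TraesCS1D03G0640800, given above. A run of 3 on 1A held TraesCS1A03G0676400. The IDs follow the order along a chromosome, but no coordinates were used here.

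On the whole chip of the root cap region, off-section spots included, the 358 genes together reached 7509 CPM (7477 to 7541). This was 6.66 times less than in the circle of section A. Counted in the same way, the whole distal root region chip held 9036 CPM of these genes. Within the 10 circles of the root cap region their level was 11017 CPM. Their median on the whole root cap region chip was 10.4 CPM, against 23.3 over all genes tested. Of the 358, 354 had at least 1 MID, 281 at least 100 and 16 under 10. Section A was at least 4 times above that chip for 278 of them, as for 10.8% of all genes tested, and 80 lay within 4 times; none was 4 times higher on the chip than in A, as 4.03% of all genes tested were. Both comparisons share section A with the rule, and the chips are 2 libraries.

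The spread among the genes was wide. TraesCS5A03G0421300 had the most MIDs there, 8099, or 286 CPM against 577 in A. The TIP2-2 gene TraesCS7D03G0801800 had 6120, or 216 CPM against 270 in A. TraesCS1A03G0691200 (326, 61, 90 and 103 MIDs in the distal sections) had 3794, TraesCS4D03G0130800 (318, 18, 13 and 13) had 3786 and TraesCS1D03G0640700 had 3723. These 5 gave 12.0% of the MIDs of the 358 genes on that chip. Of the UDP-glucose 6-dehydrogenases, those of group 4 had 53.6 to 92.8 CPM there against 67.8 to 120 in A, and those of group 5 had 87.6 to 98.2 against 273 to 321. The group 4 gene TraesCS4D03G0092300 (76.6 CPM against 67.8) and TraesCS2D03G0749000 (72 MIDs in A, 1578 on that chip) were the only 2 of the 358 whose level was higher there than in A. The 10 genes with the most MIDs in section A were split. TraesCS1A03G0676400 had 777 MIDs there (27.5 CPM), above the median of all genes tested, and TraesCS5A03G0421300 was the most counted of the 358. The next 4 after the first had few, the chitinase 4-like gene with 28 MIDs, the galactosyltransferase with 40, TraesCS3A03G0247900 with 19 and TraesCS3D03G0241700 with 12, that is 0.424 to 1.41 CPM. The DHN2 genes, which are not among these 10, had 6 and 14.

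The sections of that chip differed among themselves. The summed level ran from 3543 CPM in section 6 and 4938 in section 1 to 19048 in section 8 and 19537 in section 3. Without the 5 genes above the range was 3155 to 17616, with the same sections at the ends. The 4 xylem markers summed to 12.4 and 9.81 CPM in sections 6 and 1 and to 207 and 204 in sections 8 and 3, and the G1/S markers to 3712 and 3822 against 1697 and 1022. Sections 5 and 10 were unlike these. The 19 root cap markers summed to 3058 and 5046 CPM there and to 20.4 to 76.9 in the other 8, their xylem markers to 10.8 and 10.6, yet the 358 genes reached 12865 and 16038.

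**Figure D5:**
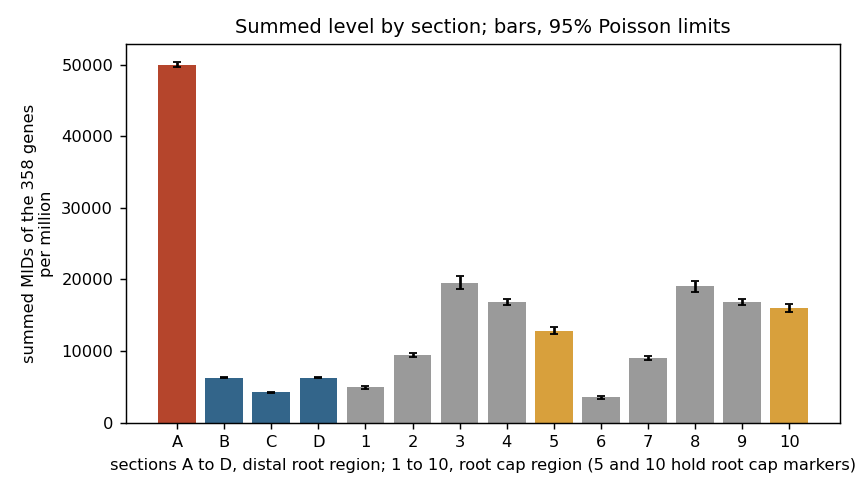
Summed CPM of the 358 genes in each circle, sections A to D of the distal root region and 1 to 10 of the root cap region; bars start at 0 and error bars are 95% Poisson limits. Section A stands at 49976, and on the root cap region chip sections 3 and 8 are highest and 1 and 6 lowest.

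The genes differed in the sections that counted them most. Of the 262 genes with at least 20 MIDs in the 10 circles, 34 were at least 4 times higher in sections 5 and 10 together than in the other 8, as were 2.56% of the 7155 tested genes with as many, and 35 were at least 4 times lower there, as were 4.99%. By class in section A, the 262 genes were 7 central, 19 ring, 38 middle, 51 outer and 147 without a class. The 34 were 17 outer, 3 middle and 14 without a class, with 0 of the few central and ring genes. The 35 were 2 central, 4 ring, 5 middle, 5 outer and 19 without a class. TraesCS6D03G0772700, the DHN3-like dehydrin, had 379 MIDs in sections 5 and 10, or 1017 CPM, and 39 in the other 8, or 13.6 CPM. TraesCS1D03G0053600 had 126 and 12, TraesCS7D03G0132200 202 and 34, the chitinase 8-like gene 72 and 66, the BURP gene 133 and 144 and TraesCS4D03G0130800 288 and 394. By level, all 6 were highest in the sections that held the root cap markers.

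In the other direction 21 of the 35 genes had no product name, and the 14 with one included all 6 UDP-glucose 6-dehydrogenases. The UDP-glucose 6-dehydrogenase TraesCS5D03G0900300 had 3 MIDs in sections 5 and 10 and 460 in the other 8, a ratio of 19.9 by level. TraesCS5A03G0942400 had 7 and 402, TraesCS5B03G0992400 7 and 398, TraesCS7D03G0801800 18 and 1012, and the peroxidase TraesCS2D03G1302200 3 and 151. The basic leucine zipper genes TraesCS3A03G0731500 and TraesCS3B03G0838100 had 3 and 151 and 1 and 160. The A, B and D copies of the group 5 dehydrogenases thus lay on the same side.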

How the data were processed

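The authors sequenced 2 Stereo-seq chips of wheat roots, cut at 10 μm, and aligned and counted reads with the STOmics Analysis Workflow. The deposited values are counts of MIDs, in all and exonic, for every gene at every capture spot, with no normalization and with spots off the tissue included. The genome build and aligner version are not stated there. No gene ID could be matched to the reference table at hand, so no sequence is shown.

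Circles A, B and C were given with the rule. Circle D and 10 circles on the root cap region chip were placed on maps of all MIDs. MIDs were summed per gene and circle and divided by the nuclear MIDs of the circle (CPM). Levels are not per length, so they were compared within genes. Limits are exact 95% Poisson or Clopper-Pearson limits (scipy 1.17.1, numpy 2.4.6, pandas 2.3.3), and cover counting error only. The steps were tested on simulated data.

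The members, groups and circles were chosen with earlier results of these data known. Named are the 10 genes with the most MIDs in A, the 5 with the highest smaller ratio, the 5 most and 5 least central with 100 MIDs in A, the 15 named genes with the most MIDs, the 5 most counted on the root cap region chip, complete homeolog groups, 3 genes on each side of the threshold, and homeologs of these. Other genes were named after their values were seen, and so were sections 5 and 10 singled out by the root cap markers. The groups by key words are secondary wall cellulose, xylan and its sugar donors, lignin and phenylpropanoids, proteases and nucleases, class III peroxidases, cytoskeleton, arabinogalactan and fasciclin proteins, NAC and MYB factors, aquaporins and transporters, germin-like and blue copper proteins, nitrogen assimilation, and expansins. Names and candidate homeologs come from the study's supplementary tables; its single-cell data were not used here.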

Additional observations from a re-analysis of the deposited data

How the results depend on the processing

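The number of genes passing the rule was 539 at a fold of 3, 194 at a fold of 6, 787 with a minimum of 50 MIDs and 147 with one of 200, all of which either contain or are contained in the 358. With the density of the ring outside each circle subtracted it was 165, of which 118 were among the 358; the cause was not tested. Circles with radii 10% smaller or larger gave 285 and 395 genes, sharing 264 and 326. Median-of-ratios scaling, which raised all ratios of A to B by 0.11 and of A to C by 0.05 on the log2 scale, gave 385, exonic MIDs 352, a reference without the 100 most counted genes 358 and a floor of 1 MID 358.

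The ratio of the summed level in A to that in B was 8.12 with exonic MIDs and 7.71 without the 10 most counted genes, and that to C 12.4 and 11.01. With area as the reference the log2 ratios by class were -0.61 (central), -0.13 (ring), 0.23 (middle) and -0.13 (outer, reversed). With boundaries 10% closer to the centre they were -0.50 in the ring, 0.11 in the middle and 0.15 in the outer class, and with boundaries 10% farther out -0.14, 0.19 and 0.0047. Without the 10 most counted genes the middle and outer values were 0.15 and 0.13. The level on the root cap region chip was 11017 CPM within its circles, 11679.5 with exonic MIDs and 7011 without the 10 genes. Subgenome shares by gene ID were 32.4% for A and 34.9% for D, and without the 10 genes 32.4%, 31.4% and 36.1% for A, B and D. At a fold of 6 the key word groups held 14 of the 358 genes instead of 35. The other 14 values, among them the ratio of A to D with both changes of radius, stayed within counting error or, for a count, within 1.5 times.

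No paired analysis was possible because each region has 1 library. Counts under about 10 MIDs in a section limit the ratios of the genes that were low in B, C and D, and spread RNA limits every low level.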
